A study of Mus musculus and Homo sapiens with 10 samples.

Results

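ERVK elements are the class II endogenous retroviruses of the mouse genome. The elements described here are the mouse ERVK subfamilies other than the IAP and ETn groups: internal parts (names ending in -int) and long terminal repeats (LTRs). They were chosen by name alone, as the rows of the mESC subfamily table that belong to the family ERVK and whose names do not start with IAP, ETn, MMETn or RLTRETN. The rule gave 253 members of 1196 mouse subfamilies, and it left out 30 of the 283 ERVK subfamilies. Of the members, 32 were internal parts and 221 were LTRs, and together they cover 284978 annotated copies, with between 1 and 27369 copies per subfamily.

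All libraries came from E14, an established line of mouse embryonic stem cells (mESCs) from strain 129, without any genetic change named in the labels. Cells were grown in serum-free 2i media with LIF, which holds mESCs in the naive state. The 4 control cultures were untreated and the 4 vitC cultures received vitamin C at 100 µg/ml for 24 h. Each control shares its replicate number and a culture code with 1 vitC library, and replicates 1 and 2 carry codes of a different series from replicates 3 and 4, here called the 2 culture sets. All are 1 cell line, and nothing further is given on how the cultures relate, so the p-values measure the spread between these libraries.

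An intact ERVK provirus has an internal part, which encodes the retroviral gag, pro and pol genes, between a pair of identical LTRs that carry the promoter and the polyadenylation signal. Recombination between the LTRs removes the internal part and leaves a solitary LTR, so most LTR copies in the genome stand alone. In mESCs many ERVKs are silenced through KRAB zinc finger proteins, which recruit TRIM28 and the H3K9 methyltransferase SETDB1. Vitamin C is a cofactor of the dioxygenases that remove H3K9 methylation (the JmjC demethylases) and oxidise 5-methylcytosine (the TET enzymes). The comparison of vitC with control asks which subfamilies changed in RNA level within a day of treatment.

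Levels are given as CPM, which are read counts scaled to a common library size. The counts assign reads that match several copies by an expectation-maximisation step. Differences are log2 fold changes of vitC over control from edgeR's quasi-likelihood test. Members were called at an adjusted p of 0.05, with Benjamini-Hochberg adjustment over all 902 tested subfamilies. An unpaired fit is the main result. A blocked fit, in which the replicate number is a term, compares each vitC library with the control of the same number. Errors of log2 fold changes are standard errors (SE). CPM values are not divided by element length, so levels of different members are not ranked. In bulk RNA, fewer expressing cells and less RNA per cell cannot be told apart.

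The libraries held between 2321035 and 5124929 subfamily counts. Members took 43823 to 88871 of these, which was 44.8% to 56.1% of the ERVK counts, and 23.3% to 38.7% of the member counts were uniquely mapped. Ribosomal RNA repeats made up 42.0% to 51.5% of subfamily counts in replicates 1 and 2 and 60.0% to 63.1% in replicates 3 and 4. The cells had the marker genes of naive mESCs: Pou5f1, Sox2, Nanog, Esrrb, Zfp42, Klf4, Tfcp2l1 and Tbx3 had median variance-stabilised values between 10.41 and 13.23, Prdm14 had 7.99, and the lowest value of the gene table was 6.13. The 17 markers of primed, endoderm, neural, trophoblast and feeder cells had medians between 6.13 and 7.25. Cer1 and Elf5 were at the lowest value in all 8 libraries, while 7 were above it in every library: Otx2, T, Gata4, Neurod1, Cdx2, Eomes and Thy1. The highest single value among these markers was 7.80, for Cdx2.

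Of the 253 members, 226 had enough counts to be tested, 30 of the 32 internal parts and 196 of the 221 LTRs. In the unpaired fit 1 member was called higher with vitC, RLTR45-int, which is 0.442% of the tested members beside 0.887% of all tested subfamilies. None was called lower by edgeR in either fit or by DESeq2. DESeq2, also unpaired, called 6 of 169 members with an adjusted p higher, beside 2.88% of all subfamilies. At an unadjusted p of 0.05, 33 members were higher and 6 were lower, of 77 and 25 among all subfamilies. With the replicate block 17 members were called higher, which is 7.52% of those tested beside 4.32% of all tested subfamilies, and the share of all subfamilies called lower was 0.333%. Internal parts made up 9 of the 17 calls, 30% of the internal parts tested, and LTRs made up 8, or 4.08% of the LTRs tested. All 17 were higher in 4 of 4 pairs and in both culture sets. The blocked fit called them on these same pairs, so this is not separate support.

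The typical change across members was small. The median log2 fold change of the 226 tested members was 0.08, beside -0.01 over all tested subfamilies. It was 0.23 for internal parts and 0.07 for LTRs. On uniquely mapped counts it was 0.03 for the 23 internal parts tested and 0.04 for the 156 LTRs tested. On all reads the values ran from -0.49 to 1.59, and 155 members (68.6%) were above 0, beside 48.7% of all tested subfamilies. In 56 members all 4 pairs were higher with vitC, and in 14 all 4 were lower, beside 119 and 117 of all 902 tested subfamilies. The 4 vitC libraries were all above the 4 controls in 18 members, 7.96% of those tested beside 4.99% of all tested subfamilies. They were all below the controls in 4 members, and the share of all subfamilies in that direction was not counted.

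**Figure D1:**
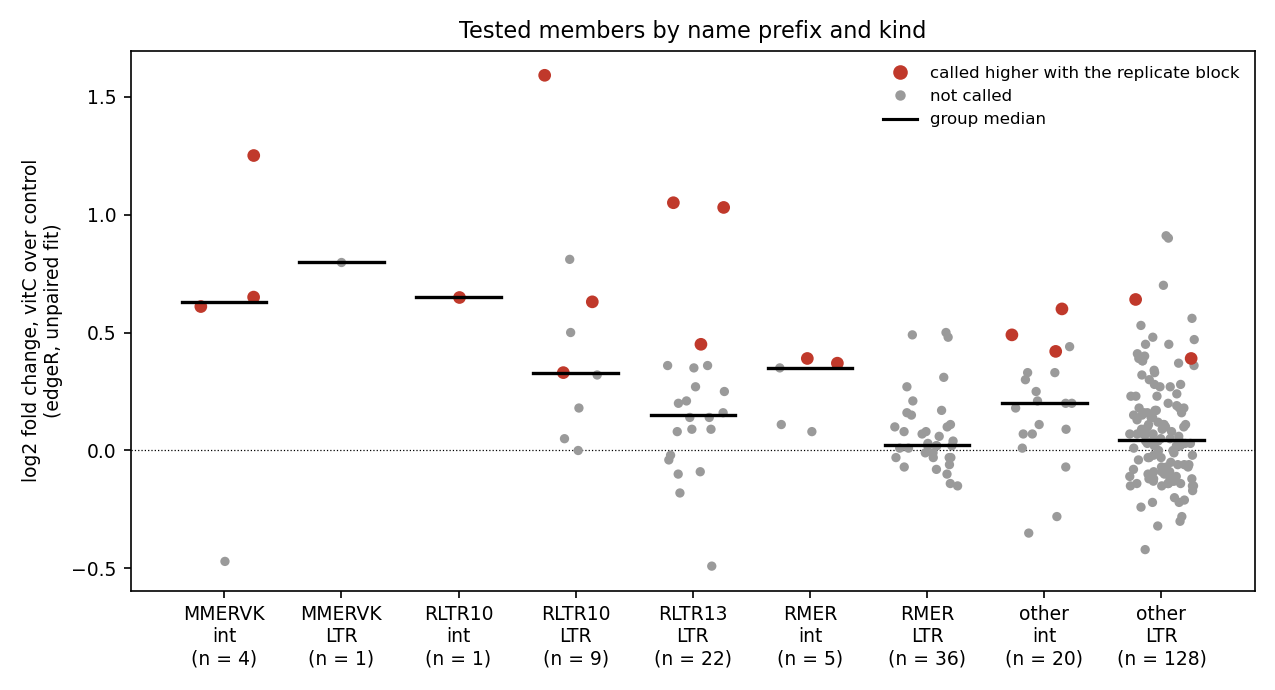
Log2 fold change of vitC over control (vertical axis, unpaired edgeR fit) for the 226 tested members, grouped by name prefix and by internal part or LTR on the horizontal axis. Each point is a subfamily, red points are the 17 called higher with the replicate block, and black lines are group medians, which lie between 0.02 for RMER LTRs and 0.80 for the only MMERVK LTR.

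Of the 4 MMERVK internal parts, betaretrovirus-like elements, 3 rose in the blocked edgeR fit and in unpaired DESeq2, and MMERVK10C-int was called in neither. MMERVK10D3_I-int, with 458 annotated copies, was at 49.3, 56.8, 31.6 and 32.6 CPM in control replicates 1 to 4. It was at 118, 136, 76.9 and 69.7 CPM in vitC replicates 1 to 4. The groups did not overlap, and in both groups replicates 1 and 2 were above replicates 3 and 4. Unpaired, its log2 fold change was 1.25 ± 0.26 (SE, edgeR adjusted p = 0.0679), and it was 1.23 ± 0.07 with the block (SE, edgeR adjusted p = 4.18e-05). The LTR of the same name, MMERVK10D3_LTR, had few reads, at 5.46 ± 2.13 CPM in control and 9.39 ± 2.72 CPM in vitC (SD, n = 4 each). It was higher in 4 of 4 pairs, with a log2 fold change of 0.75 ± 0.26 in the blocked fit (SE, edgeR adjusted p = 0.178).

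MMERVK9C_I-int and MMERVK9E_I-int, the other internal parts that rose, had higher levels. MMERVK9C_I-int was at 618, 641, 472 and 513 CPM in the controls and at 953, 952, 710 and 803 CPM in the vitC libraries. MMERVK9E_I-int was at 259, 276, 197 and 197 CPM in the controls and at 386, 418, 319 and 333 CPM in the vitC libraries. In neither did the groups overlap. MMERVK9C_I-int had a log2 fold change of 0.61, with edgeR adjusted p = 0.0679 unpaired and 9.28e-05 with the block. For MMERVK9E_I-int it was 0.65, with edgeR adjusted p = 0.0675 unpaired and 0.000124 with the block. Each of the 3 internal parts stayed called when any 1 pair was left out of the blocked fit, at edgeR adjusted p between 0.000173 and 0.00341.

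MMERVK10C-int, known as a target of TRIM28 and SETDB1 silencing, took most of the MMERVK reads and differed widely between cultures. It was at 2143, 1006, 2490 and 5571 CPM in the controls and at 868, 1094, 2513 and 3598 CPM in the vitC libraries. Pairs 1 and 4 were lower with vitC, pairs 2 and 3 differed little, and the control of pair 4 was the highest library. The log2 fold change was -0.47 ± 0.56 (SE, edgeR adjusted p = 0.777) and changed sign to 0.10 without control replicate 4. With the block it was -0.45 ± 0.21 (SE, edgeR adjusted p = 0.299). Uniquely mapped reads made up 84.4% of its counts, the highest share among tested members, against 4.41% to 10.3% in the 3 internal parts that rose.

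Because of its level, MMERVK10C-int sets the sum of the group. The 4 MMERVK internal parts together were at 3638 ± 1870 CPM in control and 3336 ± 1130 CPM in vitC (SD, n = 4 each), a log2 ratio of -0.13, although 3 of the 4 members rose in the blocked fit.

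**Figure D2:**
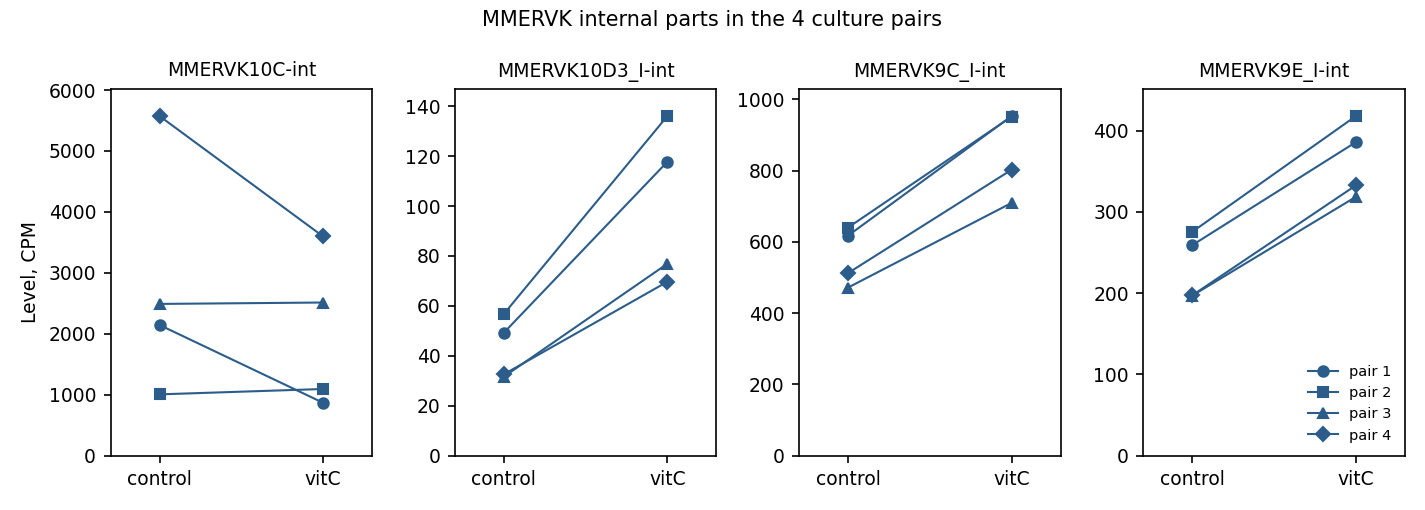
Level in CPM (vertical axes, each starting at 0) of the 4 MMERVK internal parts in control and vitC, with a line for each of the 4 culture pairs. MMERVK10D3_I-int, MMERVK9C_I-int and MMERVK9E_I-int are higher with vitC in every pair, while MMERVK10C-int ranges from 1006 to 5571 CPM among controls and is higher in 2 pairs and lower in 2.

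Most RLTR10 members had higher values with vitC. All 10 were tested, and in 8 of them all 4 pairs were higher. Their median log2 fold change was 0.42 (lowest 0.00, highest 1.59). None was called in the unpaired fit by edgeR, 5 were higher at an unadjusted p of 0.05, and DESeq2 called RLTR10D2. With the block 4 of the 10 were called, beside 39 of all 902 tested subfamilies: RLTR10D2, RLTR10D, RLTR10-int and RLTR10.

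RLTR10D2, an LTR with 225 copies, had the highest log2 fold change among the members on all reads. It was at 9.10, 13.3, 5.56 and 8.95 CPM in the controls and at 46.9, 25.1, 18.7 and 18.4 CPM in the vitC libraries. The groups did not overlap, and vitC replicate 1 stood above the other vitC libraries. In the blocked fit the log2 fold change was 1.53 ± 0.25 (SE, edgeR adjusted p = 0.0126), and it was 1.16 without pair 1 (edgeR adjusted p = 0.0198). Without pair 4 the call was lost, at edgeR adjusted p = 0.0716. Its count was between 16 and 154 per library, of which 4 to 32 were uniquely mapped. On those reads the log2 fold change was 0.79 unpaired and 0.69 with the block, below the 1.25 of MMERVK10D3_I-int, and was not called (edgeR adjusted p = 0.669 and 0.297).

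RLTR10-int, the internal part of the prefix, was at 210, 193, 137 and 144 CPM in the controls and at 384, 326, 185 and 170 CPM in the vitC libraries. Replicates 1 and 2 had the higher levels in both groups, so the groups overlapped although every pair was higher. Its log2 fold change was 0.65 ± 0.27 unpaired (SE, edgeR adjusted p = 0.403) and 0.59 ± 0.10 with the block (SE, edgeR adjusted p = 0.0157). In replicates 1 and 2 alone the log2 fold change was 0.83 (edgeR adjusted p = 0.00829), and in replicates 3 and 4 alone it was 0.35 (edgeR adjusted p = 0.309). The difference of -0.48 between the sets was not past the threshold of the edgeR interaction test (unadjusted p = 0.00818, adjusted p = 0.991). The call of the blocked fit was lost without pair 2 (edgeR adjusted p = 0.0989).

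The LTR RLTR10, annotated at 2930 places, was at 92.3, 79.7, 56.0 and 60.0 CPM in the controls and at 111, 104, 75.4 and 69.7 CPM in the vitC libraries. RLTR10D was at 17.6, 23.6, 10.1 and 15.6 CPM in the controls and at 28.6, 31.3, 18.3 and 23.5 CPM in the vitC libraries. Both overlapped between groups and were higher in every pair. With the block the log2 fold change of RLTR10 was 0.32 and that of RLTR10D was 0.60 (edgeR adjusted p = 0.0346 for each). Neither stayed called when a pair was left out, the lowest edgeR adjusted p being 0.0875 for RLTR10 and 0.0731 for RLTR10D. RLTR10C, the RLTR10 LTR with the most control reads, was at 82.9 ± 6.65 CPM in control and 93.7 ± 12.7 CPM in vitC (SD, n = 4 each), higher in 4 of 4 pairs and not called (block log2 fold change 0.18, edgeR adjusted p = 0.269).

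The RLTR13 prefix has 23 LTRs and no internal part of its own. Of the 22 tested, 3 were called higher with the block, beside 39 of all 902 tested subfamilies. In the unpaired fit edgeR called none (5 higher and 2 lower at an unadjusted p of 0.05), and DESeq2 called RLTR13B2. The median log2 fold change of the prefix was 0.15, and 16 of 22 were above 0.

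RLTR13B2 had the lowest adjusted p among the LTRs in the blocked fit. It was at 97.0, 79.0, 52.8 and 56.9 CPM in the controls and at 184, 178, 111 and 115 CPM in the vitC libraries. The lowest vitC library was above the highest control. Its log2 fold change was 1.05 in both fits, with a standard error of 0.23 unpaired (edgeR adjusted p = 0.0865) and of 0.06 with the block (edgeR adjusted p = 5.19e-05). It was 1.05 in each culture set on its own. RLTR13A3, which like RLTR13B2 flanks ETnERV3 internal parts, was at 35.3 ± 2.97 CPM in control and 38.5 ± 7.99 CPM in vitC (SD, n = 4 each). RLTR13A3 was higher in 2 of 4 pairs, with a block log2 fold change of 0.13 ± 0.14 (SE, edgeR adjusted p = 0.689). The difference between these LTRs was not tested.

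RLTR13E was at 75.3, 94.7, 62.2 and 69.0 CPM in the controls and at 103, 118, 90.3 and 98.2 CPM in the vitC libraries. RLTR13D4 was at 6.59, 11.96, 5.56 and 5.48 CPM in the controls and at 19.2, 21.1, 7.69 and 9.39 CPM in the vitC libraries. Each was higher in all pairs while the groups overlapped. With the block the log2 fold change was 0.45 for RLTR13E (edgeR adjusted p = 0.00713) and 0.96 for RLTR13D4 (edgeR adjusted p = 0.0388). RLTR13D4 rested on 15.5 to 85.0 counts per library and kept its call in 1 of the 4 fits that left out a pair, the one without pair 3. RLTR13E lost its call without pair 4 (edgeR adjusted p = 0.0599).

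RLTR13G and RLTR13A1 had log2 fold changes below 0. RLTR13G, the RLTR13 LTR with the most control reads, was at 982, 917, 631 and 761 CPM in the controls and at 811, 792, 718 and 767 CPM in the vitC libraries. It was lower with vitC in pairs 1 and 2 and higher in pairs 3 and 4, with a log2 fold change of -0.09 ± 0.12 (SE, edgeR adjusted p = 0.799). Only 1.04% of its counts were uniquely mapped, the lowest share among tested members. RLTR13A1 was at 14.1, 16.9, 21.6 and 20.8 CPM in the controls and at 11.3, 14.1, 13.9 and 12.9 CPM in the vitC libraries, lower in 4 of 4 pairs. A log2 fold change of -0.49, the lowest of the members, was not past the threshold (edgeR adjusted p = 0.278 unpaired, 0.126 with the block). RLTR13A2, picked after its values were seen, was also lower in 4 of 4 pairs, with no overlap between groups. Its log2 fold change of -0.18 was not called (edgeR adjusted p = 0.328 unpaired, 0.221 with the block).

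The RMER members had the lowest median among the named prefixes. Of 46, 41 were tested, with a median log2 fold change of 0.06. The 5 internal parts were all above 0 (median 0.35), and the 36 tested LTRs had a median of 0.02. All 4 pairs were higher in 2 of the 5 internal parts. In replicates 1 and 2 alone all 5 were above 0 (median 0.35), and in replicates 3 and 4 alone 2 were (median -0.04). On uniquely mapped counts 3 internal parts were tested and 2 were above 0. In the unpaired fit edgeR called no RMER member, while 5 were higher and 0 lower when p was left unadjusted at 0.05. With the block 2 of the 41 were called higher, both internal parts, beside 39 of all 902 tested subfamilies.

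RMER16-int differed more between culture sets than between treatments. It was at 1164, 1019, 502 and 495 CPM in the controls and at 1496, 1273, 666 and 658 CPM in the vitC libraries. Controls of replicates 1 and 2 were above the vitC libraries of replicates 3 and 4, while every pair was higher with vitC. Both fits gave a log2 fold change of 0.37, with a standard error of 0.36 unpaired (edgeR adjusted p = 0.763) and 0.04 with the block (edgeR adjusted p = 0.00136). It stayed called without each pair in turn, with edgeR adjusted p up to 0.0177. RMER16, the LTR of the same name, was higher in 4 of 4 pairs, at 19.9 ± 2.97 CPM in control and 24.3 ± 4.01 CPM in vitC (SD, n = 4 each), and was not called (block edgeR adjusted p = 0.226).

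RMER3D-int was at 77.5, 92.7, 80.0 and 79.1 CPM in the controls and at 118, 127, 92.2 and 91.2 CPM in the vitC libraries. The vitC libraries of replicates 3 and 4 lay just below control replicate 2. With the block it rose by 0.38 ± 0.08 (SE, edgeR adjusted p = 0.041), a call kept without pair 3 and lost without any other pair. RMER6A, the RMER LTR with the most control reads, was at 773 ± 52.7 CPM in control and 820 ± 148 CPM in vitC (SD, n = 4 each), higher in 2 of 4 pairs.

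The remaining 169 members carry other names. Of these, 148 were tested and 5 were called with the block, beside 39 (4.32%) of all 902 tested subfamilies. The 5 were RLTR45-int, BGLII, MERVK26-int, RLTR9D and ERVB2_1A-I_MM-int. The median log2 fold change of the 148 was 0.07, with 0.20 for 20 internal parts and 0.04 for 128 LTRs. On uniquely mapped counts the median was -0.07 for 15 internal parts and 0.01 for 95 LTRs.

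RLTR45-int, with 1317 copies, was the member called in both fits. It was at 162, 160, 151 and 141 CPM in the controls and at 227, 216, 201 and 219 CPM in the vitC libraries. Levels were even across the culture sets, and the groups did not overlap. Its log2 fold change was 0.49 ± 0.06 (SE), with edgeR adjusted p = 0.00555 unpaired and 0.00136 with the block. Leaving out any 1 library kept the call (edgeR adjusted p between 0.00574 and 0.0284). Scaling by the aligned library size gave a log2 fold change of 0.61 that was not called (edgeR adjusted p = 0.11). Its LTR partner RLTR45 was at 42.2 ± 12.2 CPM in control and 48.3 ± 8.03 CPM in vitC (SD, n = 4 each), with higher values in 2 of 4 pairs (block edgeR adjusted p = 0.541).

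BGLII was the only member called higher on uniquely mapped reads, and only with the block. It was at 211, 195, 124 and 144 CPM in the controls and at 304, 335, 215 and 195 CPM in the vitC libraries. All pairs were higher, by 0.43 to 0.79 on the log2 scale, while the groups overlapped between culture sets. The log2 fold change was 0.63 ± 0.07 with the block (SE, edgeR adjusted p = 0.00138). On the uniquely mapped counts, between 132 and 442 per library, it was 0.66 with the block (edgeR adjusted p = 0.00127) and 0.67 unpaired (edgeR adjusted p = 0.427).

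MERVK26-int was at 38.9, 39.2, 29.2 and 30.6 CPM in the controls and at 58.4, 63.8, 44.2 and 41.1 CPM in the vitC libraries. ERVB2_1A-I_MM-int, an internal part of an endogenous betaretrovirus, was at 38.9, 48.2, 31.3 and 44.2 CPM in the controls and at 53.2, 64.5, 48.0 and 51.3 CPM in the vitC libraries. The groups were apart for MERVK26-int, while for ERVB2_1A-I_MM-int vitC replicate 3 lay just under control replicate 2. Their block log2 fold changes were 0.58 (edgeR adjusted p = 0.00832) and 0.42 (edgeR adjusted p = 0.0409). MERVK26-int lost its call without pair 2 (edgeR adjusted p = 0.0572). ERVB2_1A-I_MM-int lost its call without any 1 pair, and its log2 fold change was -0.15 on uniquely mapped counts.

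The RLTR9 LTRs, some of which are bound by pluripotency factors in mESCs, had 12 tested members with a median log2 fold change of 0.31. RLTR9D was at 72.8, 76.7, 68.8 and 72.4 CPM in the controls and at 98.6, 112, 84.5 and 84.9 CPM in the vitC libraries. RLTR9E was at 364, 357, 273 and 365 CPM in the controls and at 438, 453, 493 and 402 CPM in the vitC libraries. Neither overlapped between groups. The block log2 fold change was 0.38 ± 0.07 for RLTR9D (SE, edgeR adjusted p = 0.0269) and 0.40 ± 0.10 for RLTR9E (SE, edgeR adjusted p = 0.0814), so RLTR9E was not called. RLTR9D kept its call without pair 3 and lost it without any other pair.

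**Figure D3:**
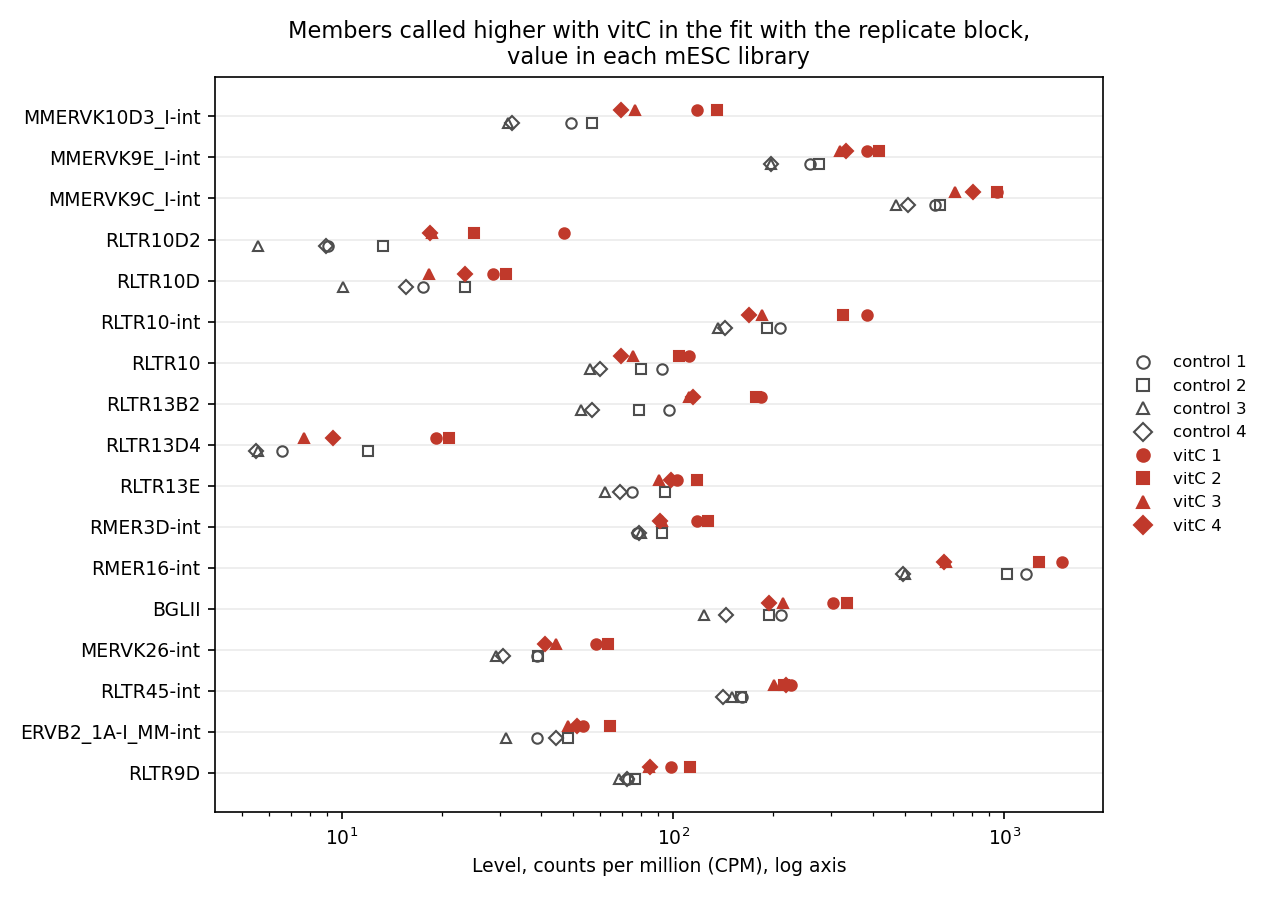
Level in CPM (horizontal log axis) of the 17 members called with the replicate block, in each of the 4 control (open grey) and 4 vitC (filled red) libraries, with 1 marker shape per replicate number. Every vitC marker lies to the right of the control marker of the same shape, and in 8 members all vitC libraries lie to the right of all controls.

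Among the members with lower values, RLTR49 came nearest to a call. It was at 102, 113, 116 and 118 CPM in the controls and at 94.3, 91.3, 89.8 and 88.0 CPM in the vitC libraries, with no overlap. The log2 fold change was -0.30 ± 0.06 (SE), with edgeR adjusted p = 0.0679 unpaired and 0.0509 with the block. On uniquely mapped counts, which were 55.0% of its total, it was -0.51 with the block and was called lower (edgeR adjusted p = 0.0435), and -0.53 unpaired (edgeR adjusted p = 0.35). It was also called lower without pair 1 (edgeR adjusted p = 0.0461).

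RLTR19-int, the internal part with the most control reads outside the named prefixes, was at 1261, 1190, 904 and 1344 CPM in the controls and at 998, 945, 955 and 981 CPM in the vitC libraries. Control replicate 3 was the only control below any vitC library. The log2 fold change was -0.28 ± 0.11 (SE, edgeR adjusted p = 0.37), and without control replicate 3 it was -0.38 and called lower (edgeR adjusted p = 0.0329). The LTR RLTR19A was at 17.2 ± 0.936 CPM in control and 14.5 ± 0.475 CPM in vitC (SD, n = 4 each), lower in 4 of 4 pairs and not called (edgeR adjusted p = 0.493). ERVB7_1-LTR_MM, the most-read LTR outside the named prefixes, was lower in 2 pairs and higher in 2, at 680.5 ± 100.4 CPM in control and 637 ± 72.4 CPM in vitC (SD, n = 4 each).

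Internal parts and LTRs that share a name could be set side by side in 15 cases, 11 of them with both tested. On all reads, the internal part had the higher log2 fold change in 9 of the 11. The exceptions were RLTR42-int with 0.07 beside 0.10 for RLTR42, and RLTR19-int with -0.28 beside -0.14 for RLTR19. ERVB4_1B-I_MM-int had 0.44 beside 0.05 for ERVB4_1B-LTR_MM, and RMER17A-int had 0.35 beside 0.01 for RMER17A. These 4 pairs were picked for their values after these were seen, and no difference between partners was tested. In RLTR10 alone both partners were called with the block. On uniquely mapped counts, unpaired, the order differed between names. RLTR45-int had 0.29 beside 0.52 for RLTR45, while RLTR10-int had 0.73 beside 0.45 for RLTR10. These names were also picked after their values were seen.

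**Figure D4:**
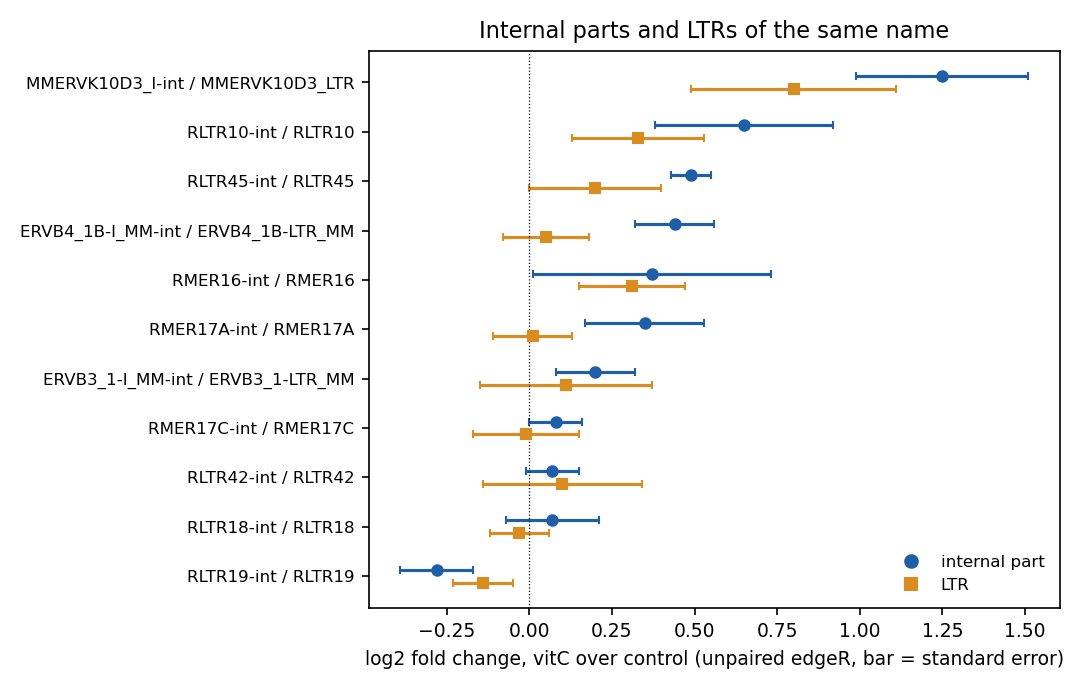
Log2 fold change of vitC over control (horizontal axis, unpaired edgeR fit, bars are standard errors) for the 11 tested names that have an internal part (blue circles) and an LTR (orange squares). The internal part has the higher value in 9 names, from 1.25 beside 0.80 for MMERVK10D3 down to 0.07 beside -0.03 for RLTR18, and the standard errors of most partners overlap.

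The called members rested mostly on reads shared between copies. Uniquely mapped reads made up a median of 12.2% of the counts of the 17 called members (range 4.41% to 36.3%) and of 26.2% of the 209 tested members not called. The tested members were split by this share into 4 bins of 56 or 57. The median log2 fold change was 0.21 in the bin with the lowest share (1.04% to 17.7%), 0.09 and 0.04 in the next bins, and 0.01 in the bin with the highest (33.9% to 84.4%). Of the 17 calls, 13 fell in the lowest bin. On uniquely mapped counts the medians of these bins were 0.16, 0.11, 0.03 and -0.02. They cover only the 41, 44, 39 and 55 members of the bins that were tested on such counts. Spearman's rho between the unique share and the log2 fold change was -0.31 over 226 members, which share libraries and partly share sequence. Internal parts also had the lower shares, with a median of 13.6% beside 26.5% in LTRs. The part of read assignment in these differences was not tested.

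On uniquely mapped counts alone 179 members could be tested, and edgeR called none in the unpaired fit. At an unadjusted p of 0.05, 10 members were higher and 1 lower by edgeR, beside 31 and 24 of all 742 tested subfamilies. With the block BGLII was called higher and RLTR49 lower, beside 0.539% of all subfamilies called in either direction. Of the 17 called members, 16 were tested on uniquely mapped counts and 15 of these were above 0, beside 103 of all 179 members tested. The unique reads are part of the counts on which the members were called, so they are not separate data. MMERVK10D3_I-int had the same log2 fold change of 1.25 on both counts, but with 7 to 40 unique reads per library (edgeR adjusted p = 0.427 unpaired, 0.0777 with the block). For RLTR13B2 it was 1.05 on all reads and 0.48 on unique reads, and for MMERVK9C_I-int 0.61 and 0.23.

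**Figure D5:**
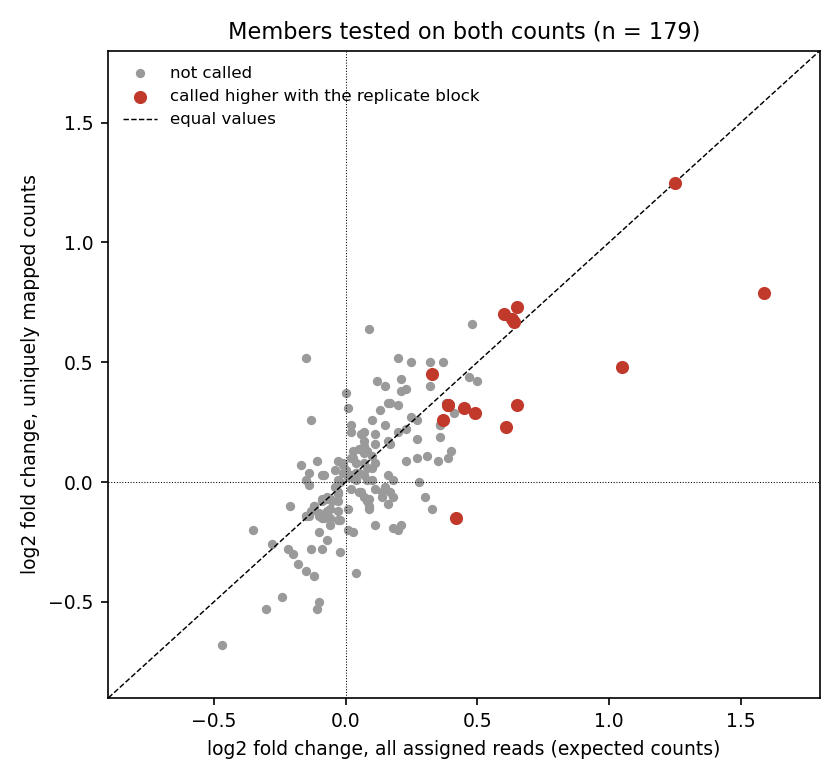
Log2 fold change on uniquely mapped counts (vertical axis) against that on all assigned reads (horizontal axis), both from the unpaired edgeR fit, for the 179 members tested on both. Red points are called members, of which 15 of 16 lie above 0 on the vertical axis, beside 103 of all 179 points. The dashed line marks equal values.

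The culture sets differed in the level of several members but gave no called difference in response. No member passed the threshold in the test of the interaction between culture set and vitC (edgeR). At an unadjusted p of 0.05 there were 12 members, or 5.31%, beside 4.1% of all subfamilies. Replicates 1 and 2 on their own gave 8 members called higher, 3.48% beside 2.17% of all subfamilies. Replicates 3 and 4 gave 3 members, 1.33% beside 0.67%. MMERVK10D3_I-int, MMERVK9E_I-int and RLTR13B2 were called in each set.

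For comparison, of the 30 ERVK subfamilies with IAP, ETn, MMETn or RLTRETN names, 27 were tested, with 5 called higher in the unpaired fit and 9 with the block, and a median log2 fold change of 0.27. Of LTR-class subfamilies outside ERVK, 269 were tested, with 0 called in the unpaired fit by edgeR (18 higher and 8 lower at an unadjusted p of 0.05), 9 higher and 1 lower with the block, and a median of 0.01. These are side by side without a test of the difference.

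Genes that act in the silencing or demethylation of ERVK elements were taken from the same libraries. Of 37 gene symbols listed, some of them synonyms, 34 genes were tested with limma on the variance-stabilised values. None was called in the unpaired fit (1 at an unadjusted p of 0.05), beside 0.342% of all genes. With the block 5 were higher and 2 lower, beside 10.8% of all genes. Differences ran from -0.26 to 0.79 on the log2-like scale. Atf7ip, which encodes a partner of SETDB1, was highest, at 9.44 ± 0.25 in control and 10.23 ± 0.32 in vitC (SD, n = 4 each), higher in 4 of 4 pairs (limma adjusted p = 0.112 unpaired, 4.6e-10 with the block). Setdb1 itself rose by 0.23 with the block (limma adjusted p = 0.000403). The H3K9 demethylase gene Kdm3b rose by 0.21 (limma adjusted p = 0.000647), as did the H3K9 methyltransferase genes Suv39h1 by 0.24 (limma adjusted p = 0.00678) and Ehmt1 by 0.14 (limma adjusted p = 0.0277). Tet2, a 5-methylcytosine oxidase gene, fell by 0.26 (limma adjusted p = 0.00492), and Cbx3, which encodes a heterochromatin protein, fell by 0.18 (limma adjusted p = 0.0106). Trim28 differed by -0.01, Kdm4a by 0.06, Kdm4c by -0.11 and Tet1 by -0.11, and none of these was called in either fit.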

How the data were processed

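RNA-seq reads of 8 mESC libraries were mapped by the authors to mm10 and counted with SQuIRE. The authors deposited, per repeat subfamily, expected counts, in which reads matching several copies were shared by expectation-maximisation, and uniquely mapped counts, which are whole numbers. They also deposited variance-stabilised gene values on a log2-like scale. The methods name rRNA depletion, whereas the labels name depletion or mRNA isolation without assigning them. Reads shared between copies can move counts between related subfamilies. Values per element length were planned for levels, but the mouse table used here gives none. 2 other per-sample columns and the hESC libraries were not used.

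Expected counts were rounded, filtered (filterByExpr), scaled by TMM and tested with edgeR 4.0.16 (glmQLFit, glmQLFTest) in R 4.3.3. Standard errors are the log2 fold change over the root of the F statistic. CPM are TMM-scaled, and ratios of pairs add 0.5 CPM. Genes that exceeded the table minimum in 4 or more libraries were tested with limma 3.58.1 (lmFit, eBayes with trend). Scripts were tested on simulated data. The numbers pair the libraries: same-numbered libraries carry the same culture code, and their deviations from group means correlated at 0.239 to 0.566 over tested subfamilies. Libraries of the same culture set with another number correlated at -0.069 to 0.46, and those of the other set at -0.502 to -0.017, and replicate 2 was not highest with its own number. The unpaired fit is the main one, since the methods name no covariate.

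Members, gene lists and tests were chosen with earlier results of these data known. Named were members called in either fit, those the study names, the most-read internal part and LTR of each prefix, their name partners, and the 3 lowest log2 fold changes that were lower in all pairs. Alternatives were the block, DESeq2 1.42.0, other scalings and filters, transposable-element classes only, uniquely mapped counts and fewer libraries. DESeq2 with the block, and leaving out each pair with the block, were added after seeing the data. No element sequence is printed.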

Additional observations from a re-analysis of the deposited data

Results flagged for a closer look

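5 results met a rule for a closer look. The log2 ratio of vitC to control had opposite signs in the 2 culture sets for 3 LTRs, with every pair of a set on the same side. For ERVB7_1-LTR_MM it was -0.32 in replicates 1 and 2 and 0.15 in replicates 3 and 4 (edgeR interaction adjusted p = 0.991). RLTR13G had -0.23 and 0.10 (edgeR interaction adjusted p = 0.991). RMER6A had -0.04 and 0.21 (edgeR interaction adjusted p = 0.991). None of these interactions passed the threshold.

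In 2 control groups, 1 library lay far from the other 3. RLTR9E was at 273 CPM in control replicate 3 and between 357 and 365 CPM in the others. RMER3D-int was at 92.7 CPM in control replicate 2 and between 77.5 and 80.0 CPM in the others. Chance flags about 1 in 20 groups in this way, and 62 groups were examined.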

How the results depend on the processing

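The count of members called higher, 1 in the unpaired fit, was 17 with the replicate block, 6 with DESeq2, 3 with the aligned library size, 5 on LINE, SINE, LTR and DNA classes only (22 with the block, and 1 lower), 0 on uniquely mapped counts (10 at an unadjusted p of 0.05 by edgeR), 8 in replicates 1 and 2 only, 3 in replicates 3 and 4 only, and 11 with DESeq2 and the block. Without 1 library it was 1 to 2, and 0 to 1 were called lower. Leaving out a pair with the block gave 11, 9, 15 and 9 higher and 0 to 1 lower. On uniquely mapped counts with the block 1 was called lower. The 10 members higher on uniquely mapped counts at an unadjusted p, unpaired, stand beside 31 of all 742 subfamilies. As shares of members, beside all subfamilies, these higher calls were 3.55% and 2.88% with DESeq2, 5.05% and 2.82% with DESeq2 and the block, 1.32% and 0.993% with the aligned library size, 2.18% and 1.64% on those classes, and 9.61% and 5.74% on them with the block. Left-out pairs gave 3.95% to 6.55% of members and 1.99% to 3.81% of all subfamilies. Left-out libraries gave 0.435% to 0.866% and 0.327% to 1.4%. Lower calls were 0.437% of members beside 0.585% of all subfamilies on those classes with the block. On uniquely mapped counts with the block they were 0.559% beside 0.135%. Where 1 member was called lower without a library or a pair, the shares were 0.437% to 0.442% beside 0.11% to 0.98%. DESeq2 shares leave out subfamilies without an adjusted p. The aligned library size moved the median log2 fold change from 0.08 to 0.22, while that of all subfamilies moved from -0.01 to 0.12.

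Log2 ratios of summed CPM were -0.20 for all members, -0.64 for MMERVK internal parts and 0.16 for RMER internal parts on uniquely mapped counts, against 0.03, -0.13 and 0.34 on all reads. The sign of the log2 fold change turned for ERVB7_1-LTR_MM (0.02 by the aligned library size, 0.15 in replicates 3 and 4, -0.17 to 0.01 without 1 library, the latter without control replicate 1, 0.09 without pair 1), RLTR13G (0.03 by the aligned library size, 0.03 on unique counts, 0.01 with the block too, 0.10 in replicates 3 and 4, -0.20 to 0.00 without 1 library, the latter without control replicate 1, 0.00 without pair 1), ERVB2_1A-I_MM-int (-0.15 on unique counts, -0.13 with the block), RLTR13A3 (-0.06 and -0.08), RMER6A (-0.04 in replicates 1 and 2, -0.05 to 0.15 without 1 library, the former without vitC replicate 3, -0.01 without pair 3) and MMERVK10C-int (-0.91 to 0.10 without 1 library, the latter without control replicate 4). Silencing genes gave 5 higher and 2 lower with the replicate block and none otherwise. The causes were not tested.

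RLTR45-int was not called with the aligned library size (0.61), in replicates 3 and 4 (0.53), or on unique counts without (0.29) and with the block (0.28). On all reads and all classes, the block in edgeR and limma changed no call beyond the members and genes given. Few unique reads per member, often under 50 per library, limit what the unique counts can show.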
